A study of Homo sapiens with 4 samples.

Results

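Genes of the circadian clock were followed in SKOV3, an established cell line from a human ovarian cancer, with and without the ginseng saponin 20(S)-Rg3. The set comprised BHLHE40, BHLHE41, PER1, PER2, PER3, CRY1, CRY2, CLOCK, ARNTL and NR1D1, and all 10 were found by symbol among the 40205 genes of the deposited count table. The set was selected on BHLHE40, whose level was higher with Rg3 in these same libraries, and was filled up with core clock genes by their known role. The treatment values of BHLHE40 are therefore given as a description with no test, and no pattern of the set counts as independent support for that difference. The 4 libraries were 2 from control cells and 2 from cells exposed to Rg3 at 80 µg/mL for 24 h, all grown in medium with serum. The labels give RNA as pooled, leave unstated whether replicate libraries had cultures of their own, and name neither a vehicle for the controls nor any synchronisation of the cells. The exposure was sampled at a single time, so levels here hold no information on rhythm, and p-values speak only to differences among these libraries, which could be technical in origin.

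The molecular clock is a feedback loop of transcription. CLOCK pairs with ARNTL (also called BMAL1) and the pair binds E-box sequences to switch on the PER, CRY, NR1D1 and BHLHE genes, whose proteins then hold the loop back. PER and CRY proteins block the CLOCK and ARNTL pair, NR1D1 (REV-ERB alpha) represses ARNTL through the RORE element, and BHLHE40 and BHLHE41 (DEC1 and DEC2) compete for E-boxes. BHLHE40 is also known as a gene that responds to hypoxia, serum and other stimuli outside the loop.

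The start regions of the members are shown because these elements tie the genes of the loop together. Sequences came from RefSeq (GRCh38.p14) and ran from 250 bases before to 50 after each annotated start, with 14 such windows for the 10 genes. Each window was searched on both strands for the E-box CACGTG, the D-box TTANGTAA, the RORE core TAGGTCA and the CRE TGACGTCA, none of which overlapped another in these windows. Capitals mark the match in every sequence, positions count from the start, and the base before the start is −1. The 250 bases before the BHLHE40 start (chr3:4979187-4979436, plus strand) held an E-box at position −245.
BHLHE40: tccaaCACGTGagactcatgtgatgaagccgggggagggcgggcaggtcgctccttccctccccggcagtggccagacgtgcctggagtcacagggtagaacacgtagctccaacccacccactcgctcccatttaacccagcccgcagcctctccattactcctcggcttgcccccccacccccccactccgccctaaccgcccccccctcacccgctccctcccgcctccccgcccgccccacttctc
Matches in other members are given with up to 11 bases on either side, on the strand of the gene. BHLHE41 had an E-box at −48 (chr12:26125069-26125096, minus strand) and PER1 one at −173 (chr17:8152561-8152588, minus strand).
BHLHE41: ggtacgttccgCACGTGagctgggtgct
PER1: gcacccaggtcCACGTGcgcccgtgtgt
PER2 had a D-box at −3 (chr2:238288595-238288624, minus strand) and PER3 one at −177 (chr1:7784103-7784132, plus strand).
PER2: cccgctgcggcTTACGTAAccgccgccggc
PER3: gagcccgcgcgTTATGTAAcgcgccccggg
ARNTL had the RORE core at 31 (chr11:13277809-13277837, plus strand) and CRY2 at −65 of its second start (chr11:45847399-45847427, plus strand).
ARNTL: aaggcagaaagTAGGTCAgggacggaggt
CRY2: ttgcggcgtcaTAGGTCActgggcgggct
Of 35116 windows of this length over all genes, 7.26% held the E-box, 2.18% the D-box and 1.85% the RORE core, against 3, 2 and 2 of the 14 member windows. The CRE was in 1.85% of all windows and in 0 of the 14. No listed element was found in the windows of CRY1, CLOCK and NR1D1. A match describes letters only and shows neither binding nor use in these cells.

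Totals were 24482846 and 26731913 counts for control 1 and 2, and 30132517 and 24571619 for Rg3 replicates 1 and 2. The Rg3 libraries stood further apart than the controls. The median absolute log2 difference between replicates over the 16323 tested genes was 0.30 with Rg3 and 0.14 in controls. Summed epithelial marker levels ran from 5827 to 7846 CPM (counts scaled to a common library size), with 7 of 10 markers at 10 counts or more in every library. The sum came mostly from KRT7, KRT8 and KRT18, at 1557 to 2817 CPM each. ERBB2 was at 45.2 to 53.5 CPM and MSLN at 43.0 to 66.4 CPM, far below these keratins. FOLR1 was at 5.52 to 7.42 CPM and MUC1 at 1.22 to 2.95 CPM. KRT19 and WT1 were at 3 counts or fewer throughout, and PAX8 was under 1 CPM in every library. White blood cell markers summed to under 1 CPM in each library. Of the endothelial markers 2 of 3 (PECAM1 and VWF) and of the fibroblast markers 4 of 6 (COL1A2, COL3A1, LUM and DCN) were under 1 CPM in every library. The list sums of 16.5 to 19.8 CPM and 29.5 to 39.1 CPM came mostly from CDH5 at 16.2 to 19.5 CPM and from PDGFRB at 27.7 to 34.3 CPM. Control 2 held 14 genes with at least 20 counts that had 0 in each of the other libraries, against 2 such genes in Rg3 replicate 1 and 0 in the remaining libraries. Their part in the values of the clock genes was not tested, and values without control 2 are in the plot of fold changes with each library left out.

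BHLHE40 encodes a basic helix-loop-helix repressor and was the member with the largest treatment difference. Its level was 37.3 and 38.6 CPM in controls, and 105 and 58.2 CPM in Rg3 replicates 1 and 2. Both Rg3 libraries lay above both controls, but they were far apart from each other. Relative to the control mean the level was 2.75-fold in Rg3 replicate 1 and 1.53-fold in replicate 2. The group means were 38.0 ± 0.885 and 81.4 ± 32.8 CPM (mean ± SD over n = 2 libraries, as in all later values of this form), 2.15-fold higher with Rg3 and a log2 fold change of 1.10 (SE 0.26). Of all tested genes 1.67% had a larger absolute log2 fold change, a rank that follows from the choice of BHLHE40 and tests nothing. Leaving out Rg3 replicate 1 gave a log2 fold change of 0.62, and leaving out Rg3 replicate 2 gave 1.46. Counts behind these levels were 920 and 1020 for the controls, then 3221 and 1402 for the Rg3 libraries, so counting error is small beside the gap between the latter.

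BHLHE41, the paralog of BHLHE40, was almost silent. Counts were 6 and 9 in the control libraries, then 8 and 5 with Rg3, below the count filter, so it was not tested. These counts cannot show whether it changed.

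A non-coding gene on the opposite strand, BHLHE40-AS1, starts inside BHLHE40 in the RefSeq annotation. Because the strand of counting is not given in the sources used here, reads of the overlapping stretch could be assigned to either gene. For BHLHE40-AS1 the control libraries gave 3 and 9 counts and the Rg3 libraries 23 and 25. The log2 fold change of 1.90 (SE 0.55) did not pass with edgeR (adjusted p = 0.905). Its Rg3 libraries lay above both controls at 0.747 and 1.04 CPM, and the higher of them was replicate 2, the reverse of BHLHE40. The antisense counts were few beside those of BHLHE40 in every library. They do not show how reads of the overlap were divided between the 2 genes, which was not tested.

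**Figure D1:**
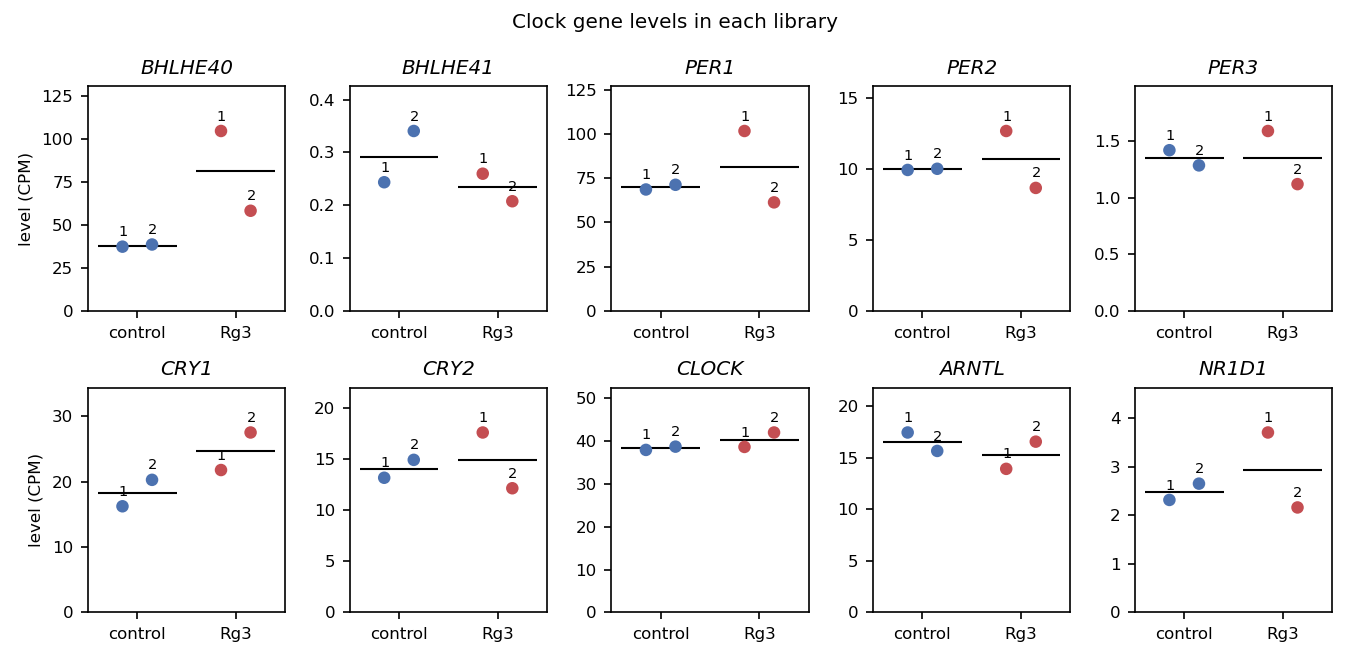
Level of each clock gene in CPM (linear axis from 0, a separate scale per panel) in the 2 control and 2 Rg3 libraries, numbered by replicate, with a bar at each group mean. BHLHE40 and CRY1 are the members whose Rg3 libraries both lie above both controls.

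BHLHE40 was the reason for the choice, so its p-values are not read as tests. Of the other 8 members that passed the count filter, 0 were called with edgeR's quasi-likelihood test at an adjusted p under 0.05. Over all 16323 tested genes 5 were called (0.0306%), which were 5 higher (0.0306%) and 0 lower (0%). At an unadjusted p under 0.05 there were 0 of the 8, beside 4.73% of all tested genes. DESeq2 and limma voom also called 0 of the 8, and DESeq2 called 0.38% of all genes it tested. Each of the 8 had an edgeR adjusted p of 0.999, with log2 fold changes from −0.12 to 0.43. With 2 libraries against 2, the smallest two-sided p an exact permutation test of a single gene could give is 0.333, so none was run.

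The PER genes encode the period proteins, which carry CRY proteins into the nucleus. PER1 had a level of 68.6 and 71.3 CPM without Rg3, then of 102 CPM in Rg3 replicate 1 and 61.3 CPM in Rg3 replicate 2. Replicate 1 was above and replicate 2 below both controls, so the groups overlapped and the log2 fold change was 0.22 (SE 0.23). The direction hung on the library used. It was −0.19 when Rg3 replicate 1 was left out but 0.54 when replicate 2 was. With a single Rg3 library left, the spread in such a fit comes from the 2 controls alone, which lay closer together, and the Rg3 library is assumed to vary like them. On that footing PER1 passed without Rg3 replicate 2 (edgeR adjusted p = 0.0165), in a fit that called 2.68% of its genes, and did not pass without Rg3 replicate 1 (adjusted p = 0.301).

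PER2 showed the same arrangement at 9.95 and 10.0 CPM in controls against 12.7 and 8.68 CPM with Rg3, in replicate order. Its log2 fold change was 0.10 (SE 0.22), and −0.20 without Rg3 replicate 1 or 0.35 without Rg3 replicate 2. The controls of PER2 lay closer to each other than those of the other tested members, with a log2 difference of −0.01. PER3, with 27 to 49 counts per library, was at 1.42 and 1.29 CPM in controls and 1.59 and 1.12 CPM with Rg3. Its log2 fold change was 0.01 (SE 0.34), and it was −0.27 without Rg3 replicate 1, −0.06 without control 2 and 0.23 without Rg3 replicate 2. PER4, a pseudogene of PER3 that could share its reads, had 0 counts in every library.

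The cryptochromes are the partners of the PER proteins and direct inhibitors of CLOCK and ARNTL, and both genes differed in arrangement. CRY1 was at 16.2 and 20.3 CPM in controls and 21.8 and 27.5 CPM with Rg3. Both Rg3 libraries lay above both controls, and it was the only tested member besides BHLHE40 for which they did. Its log2 fold change was 0.43 (SE 0.19, edgeR adjusted p = 0.999), from 18.3 ± 2.86 to 24.7 ± 4.06 CPM. Leaving out Rg3 replicate 2 lowered this to 0.25, and leaving out control 1 to 0.29. It was 0.59 without Rg3 replicate 1 and 0.60 without control 2. The former passed (edgeR adjusted p = 0.0352) in a fit that called 5.22% of its genes with the spread of the controls alone, so it shows no replicated difference. Thus 2 of 9 tested members, CRY1 and BHLHE40 (the reason for the choice), had both Rg3 libraries above both controls, and 0 had both below. Of all tested genes 15.3% lay above in this way and 17% below.

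CRY2 was at 13.2 and 14.9 CPM in controls and 17.6 and 12.2 CPM with Rg3, in replicate order. As with the PER genes, the controls lay between the Rg3 libraries. The log2 fold change was 0.09 (SE 0.21), and it became −0.21 when Rg3 replicate 1 was left out and 0.33 when replicate 2 was.

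NR1D1, the nuclear receptor that represses ARNTL, was at 2.31 and 2.65 CPM in controls and 3.70 and 2.16 CPM with Rg3. The controls again lay between the Rg3 libraries, at 52 to 114 counts per library. The log2 fold change was 0.25 (SE 0.32), and it became −0.20 when Rg3 replicate 1 was left out and 0.58 when replicate 2 was. The end of NR1D1 overlaps THRA, a thyroid hormone receptor gene on the other strand, so reads there could be counted for either. THRA was at 38.5 and 36.5 CPM in controls and 31.4 and 28.9 CPM with Rg3, with a log2 fold change of −0.32 (SE 0.14, edgeR adjusted p = 0.999). Both Rg3 libraries of THRA lay below both controls, an arrangement that NR1D1 did not have.

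The activators had fold changes close to 0. CLOCK was at 37.9 and 38.6 CPM in controls and 38.6 and 41.9 CPM after Rg3, which is a log2 fold change of 0.07 (SE 0.14). ARNTL was at 17.5 and 15.7 CPM in controls and 13.9 and 16.6 CPM after Rg3, with a log2 fold change of −0.12 (SE 0.17). ARNTL was the only tested member with a negative fold change in the fit of all libraries, and it stood at 0.005 without Rg3 replicate 1. For both genes the groups overlapped.

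**Figure D2:**
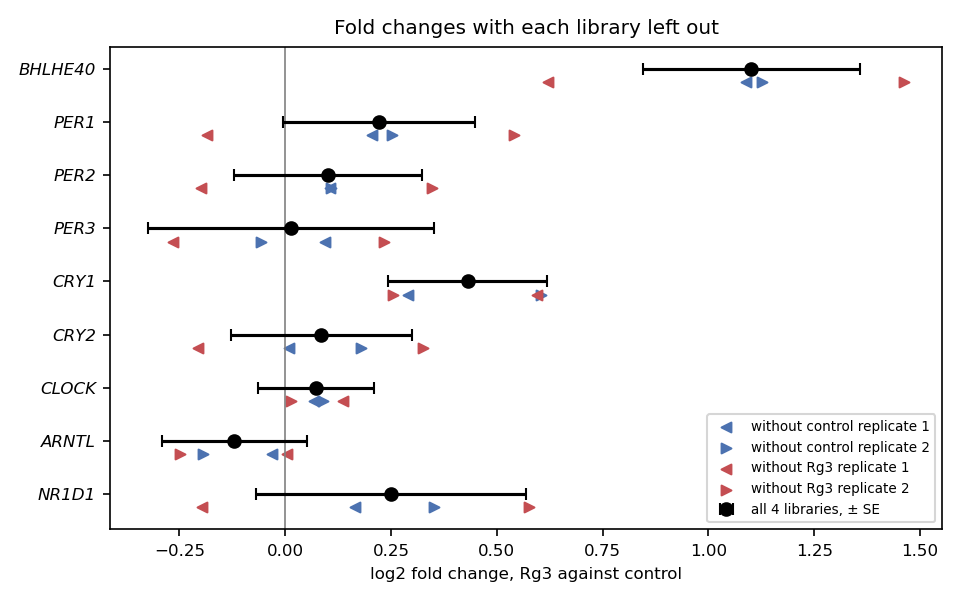
Log2 fold change of Rg3 against control for the 9 tested clock genes (black points with SE, edgeR), with the values after leaving out each library (triangles). PER1, PER2, PER3, CRY2 and NR1D1 lie on opposite sides of 0 depending on which Rg3 library is left out, while BHLHE40 runs from 0.62 to 1.46.

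The Rg3 replicates differed in most members. In log2 terms Rg3 replicate 1 exceeded replicate 2 by 0.85 for BHLHE40, 0.78 for NR1D1, 0.73 for PER1, 0.55 for PER2, 0.54 for CRY2 and 0.50 for PER3. Replicate 1 was thus the higher in 6 of the 9 tested members, beside 48.9% of all tested genes, a count that was not tested. These 6 genes encode repressors of the loop, as do all tested members other than CLOCK and ARNTL. For CRY1, also a repressor, and for both activators it went the other way, at −0.34 for CRY1, −0.25 for ARNTL and −0.12 for CLOCK. Single genes of this spread were common in the table. A larger absolute difference between the Rg3 libraries was found in 9.27% of all tested genes for BHLHE40, in 11.3% for NR1D1 and in 26.4% for PER3. The control replicates of the 9 genes differed by −0.32 to 0.16.

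For 5 of the 9 tested members, PER1, PER2, PER3, CRY2 and NR1D1, Rg3 replicate 1 lay above both controls and Rg3 replicate 2 below both. The opposite arrangement was found in 0 of the 9. Over all tested genes the shares were 15.9% and 15.8%. The arrangement was noticed after the values were seen and was not tested, and there is a single pair of Rg3 replicates to judge it by.

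**Figure D3:**
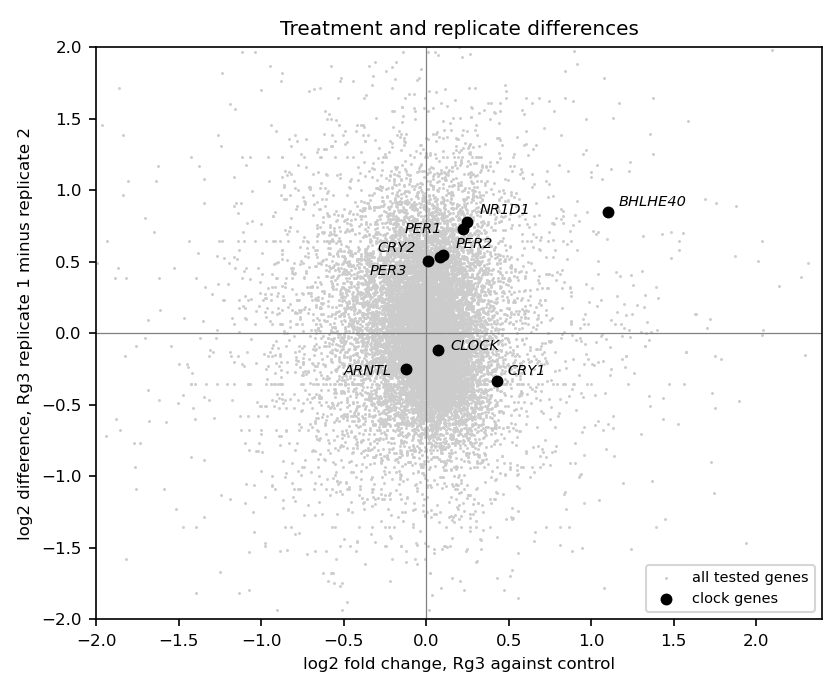
Log2 fold change of Rg3 against control (x axis) and log2 difference of Rg3 replicate 1 minus replicate 2 (y axis) for all tested genes (grey, 153 lie outside the axes) and the 9 tested clock genes (black). BHLHE40 has the highest value of the 9 on both axes, and PER1, PER2, PER3, CRY2 and NR1D1 differ between replicates by 0.50 to 0.78 at fold changes of 0.25 or less.

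The remaining clock genes were taken from lists written by function, with earlier results of these data known. Across 5 lists with 70 genes, all were in the table and 63 were tested, of which edgeR called 0 higher and 0 lower. At an unadjusted p under 0.05 there were 5 of the 63, beside 4.73% of all tested genes. DESeq2 called 1 of them, PDK4, beside 0.38% of the genes it tested. The median log2 fold change of the 63 was 0.04, beside 0.10 for the 9 clock members and 0.01 for all tested genes, of which 8573 were above 0 and 7750 below.

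Other clock transcription factors had 5 of 8 tested genes above 0, and their median log2 fold change was 0.04. ARNTL2, a paralog of ARNTL, was at 25.5 and 24.8 CPM in controls and 26.1 and 33.2 CPM with Rg3. NFIL3, a repressor at D-boxes, had group means of 12.3 ± 0.500 without Rg3 and 14.3 ± 0.329 CPM with it. For both genes the Rg3 libraries lay above the controls, with log2 fold changes of 0.23 (SE 0.17) and 0.21 (SE 0.16) and an edgeR adjusted p of 0.999 each. RORA, RORB and CIART were too low to test.

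Kinases, phosphatases and ubiquitin ligases that act on clock proteins had 12 of 18 tested genes above 0 and a median of 0.09. GSK3B, a kinase that phosphorylates NR1D1 and other clock proteins, was at 41.9 and 43.9 CPM in controls and 59.2 and 52.4 CPM with Rg3. Its groups did not overlap, and the log2 fold change was 0.38 (SE 0.14, edgeR adjusted p = 0.999). USP2, a deubiquitinase, had group means of 8.29 ± 0.586 without Rg3 and 6.63 ± 0.630 CPM with it, and GSK3A of 25.1 ± 0.664 and 28.0 ± 0.923 CPM. The casein kinase genes CSNK1D and CSNK1E, which mark PER proteins for decay and were named after their values were seen, had log2 fold changes of 0.08 and −0.17.

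Partners and cofactors of the clock complexes had 12 of 16 tested genes above 0 and a median of 0.05. NAMPT, an enzyme of NAD synthesis whose gene is an E-box target, was at 16.0 and 14.4 CPM in controls and 18.5 and 20.3 CPM with Rg3. TIPIN, which binds TIMELESS, was at 19.6 and 19.5 CPM in controls and 18.7 and 31.1 CPM with Rg3. TIPIN thus had the replicate gap in the reverse direction to the PER genes, with replicate 2 above. PPARGC1A, a coactivator of metabolic genes, had a log2 fold change of −0.21 (SE 0.15). In 7 of the 16, Rg3 replicate 1 was above both controls and replicate 2 below both, where the share over all tested genes was 15.9%. The opposite arrangement was found in 1 of the 16, TIPIN, beside 15.8% of all tested genes. Among the 7, named after their values were seen, were the acetyltransferase genes CREBBP (26.0 and 21.0, then 38.5 and 15.9 CPM) and EP300 (43.8 and 40.8, then 59.6 and 30.9 CPM).

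The HES, HEY and ID families encode helix-loop-helix proteins, as BHLHE40 does, and had 7 of 11 tested genes below 0, with a median of −0.26. HEY1, a Notch target, was at 4.22 and 4.28 CPM in controls and 2.34 and 2.24 CPM with Rg3. Its replicates lay close together in both groups, and the log2 fold change was −0.89 (SE 0.23, edgeR adjusted p = 0.770). On the log2 scale HES1 stood at −0.50 (SE 0.24) and ID3 at 0.22 (SE 0.14) relative to control, each with an edgeR adjusted p of 0.999. In this list 10 of 11 tested genes were higher in Rg3 replicate 1 than in replicate 2, beside 48.9% of all tested genes. The list median of this log2 gap was 0.29, beside −0.01 over all tested genes. Control 1 also tended to exceed control 2 in this list, by a median of 0.18, beside 0.002 over all tested genes. The count was not tested.

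Genes often described as clock outputs had 7 of 10 tested members below 0 and a median of −0.27. PDK4, a kinase that holds back pyruvate dehydrogenase, was at 27.8 and 29.6 CPM in controls and 15.4 and 11.9 CPM with Rg3. Its groups did not overlap, and the log2 fold change was −1.07 (SE 0.18, edgeR adjusted p = 0.225). Leaving out Rg3 replicate 1 moved this value to −1.27, and leaving out replicate 2 to −0.90. Both passed in fits whose spread came from the controls alone and which called 5.22% and 2.68% of their genes. CDKN1A, the cell cycle inhibitor p21, was at 62.2 and 66.4 CPM in controls and 48.4 and 46.1 CPM after Rg3. The log2 fold change was −0.44 (SE 0.13, edgeR adjusted p = 0.905). KLF9, a zinc finger factor, had group means of 47.3 ± 2.72 without Rg3 and 36.8 ± 1.15 CPM with it. In this list 6 of 10 tested genes had both Rg3 libraries below both controls, where the share over all tested genes was 17%. The split around the controls seen in PER1 was found in 0, beside 15.9% of all tested genes. Neither count was tested, and the list was written with earlier results of these data known.

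**Figure D4:**
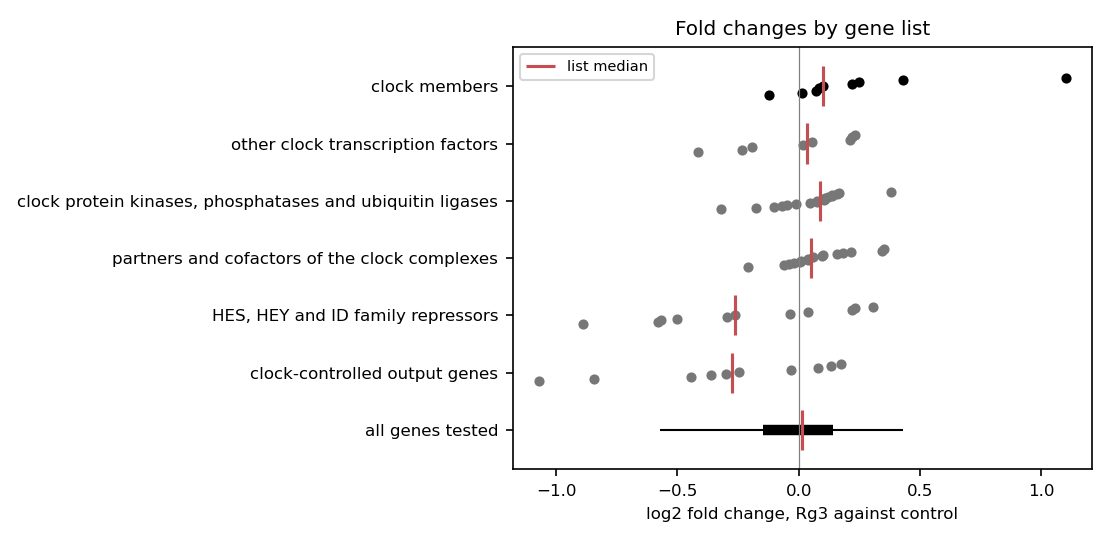
Log2 fold change of Rg3 against control for the tested genes of each list (points) with the list median (red bar), above the 5th to 95th percentile (thin line) and interquartile range (thick line) of all tested genes. BHLHE40 is the rightmost point among all lists, and PDK4 the leftmost at −1.07.

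The genes whose profile over the 4 libraries was nearest to that of BHLHE40 were DHCR7, LSS, CLCN6, PDE2A and C6orf223. They were ranked among 8766 genes with a mean of at least 10 CPM by the root mean square distance of log2 CPM, each gene centred on its own mean. DHCR7, an enzyme late in cholesterol synthesis, was nearest at 0.08, with 34.7 and 38.8 CPM in controls and 96.1 and 61.0 CPM with Rg3. LSS, the lanosterol synthase, followed at a distance of 0.13, with 52.7 and 53.2 CPM in controls and 162 and 101 CPM with Rg3. CLCN6, a chloride transporter of endosomes, PDE2A, a cyclic nucleotide phosphodiesterase, and C6orf223 had distances of 0.14, 0.17 and 0.18. Their shared shape follows from this choice, and with 4 libraries the ranking describes these samples only.

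**Figure D5:**
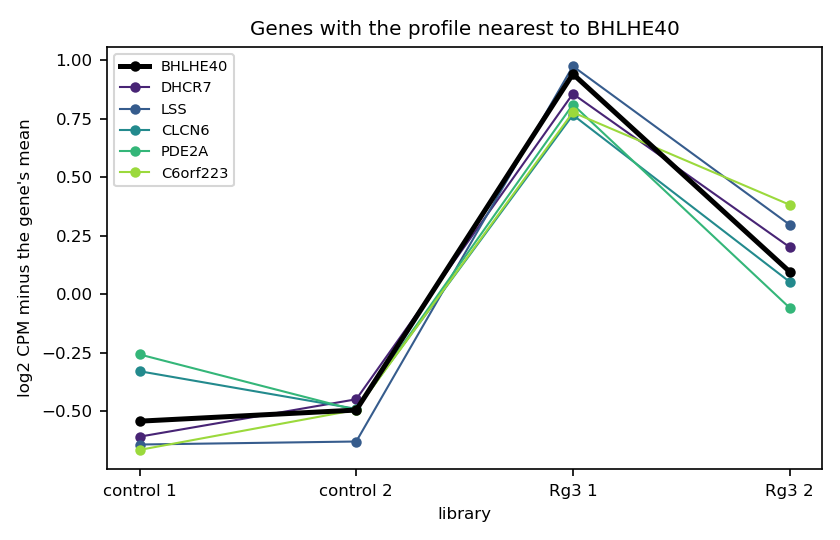
Log2 CPM minus the mean of each gene (y axis) in the 4 libraries (x axis) for BHLHE40 (black) and the 5 nearest genes. The genes were chosen for this likeness, and the lines join libraries only to guide the eye.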

How the data were processed

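Ribosomal RNA was depleted from total RNA of 4 SKOV3 libraries and sequenced, per the labels' protocols. The authors deposited raw read counts per gene symbol for 40205 genes, not normalised. The genome build was GRCh37 per the submitters' processing notes, and of the aligner, counter, annotation and strand each is not given in the sources used here. Groups came from the treatment label and columns were matched by title.

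The fit used edgeR 4.0.16 under R 4.3.3. Genes passing filterByExpr (minimum count 10, minimum total 15) numbered 16323. They were scaled by TMM and tested with the quasi-likelihood test, treatment as the only term, 2 residual degrees of freedom and Benjamini-Hochberg adjustment over all tested genes. The method was run on simulated counts with known fold changes, drawn with the spread estimated from these data. That check is no measure of power for the smaller differences of most members. Levels are CPM on TMM-scaled library sizes, and standard errors came from the F statistic. Precision depended on the spread between replicate libraries as well as on the library totals of 24482846 to 30132517 counts. No transcript lengths were used, so where genes are set side by side, as in the marker sums, reads and not transcript numbers are compared. Clock members and gene lists were chosen with earlier results of these data known. CIART, CIPC and NOCT were found under older symbols.

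Genes named are all 10 members, per list every called gene or the 3 smallest p, transcripts overlapping a member and the 5 profiles nearest to BHLHE40. Others are marked as named after their values were seen. Some genes that the rule names are not reported here. Alternatives were DESeq2 1.42.0, limma 3.58.1 (voom), other scaling and filters, a replicate block and leaving out each library.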

Additional observations from a re-analysis of the deposited data

How the results depend on the processing

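Values moved most when a library was left out. In those fits the group with 1 library is assumed to vary like the other group, whose 2 libraries alone give the spread. With no library left out, BHLHE40 kept a log2 fold change of 1.04 to 1.11 in all settings. Leaving out single libraries gave 0.62 to 1.46 for BHLHE40, −0.19 to 0.54 for PER1, −0.20 to 0.35 for PER2, −0.27 to 0.23 for PER3, −0.21 to 0.33 for CRY2, −0.20 to 0.58 for NR1D1, −0.25 to 0.0049 for ARNTL, 0.25 to 0.60 for CRY1 and 0.01 to 0.14 for CLOCK. With a library left out at a time 0 to 2 members were called higher and 0 lower, 0 to 4 other clock genes higher and 0 to 4 lower, and 31 to 428 of all genes higher and 18 to 456 lower. PER3 also turned to −0.017 with upper-quartile factors and to −0.0071 with the replicate block. The cause of these turns was not tested.

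DESeq2 called 37 genes higher and 17 lower, with 1 member higher (BHLHE40, the reason for the choice, so no test of it here or below) and 1 other clock gene lower. Without a low-count filter edgeR called 90 higher and 124 lower, with 1 member higher and 2 other clock genes lower (PDK4 and ID4). Upper-quartile factors called 2 genes lower, and leaving out small RNA and mitochondrial genes before scaling called 8 higher and 1 lower. The replicate block called 69 higher and 86 lower, with BHLHE40 as 1 member higher and PDK4 as 1 other clock gene lower. Replicate numbers are not stated to pair the libraries, and deviations of same-numbered libraries correlated across genes at 0.149 with a pair of numbers only. No scaling moved the median log2 fold change of all genes beyond −0.015 to 0.017.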

Other observations

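ID4, an inhibitor of helix-loop-helix factors on the list of HES, HEY and ID genes, had 23 counts in control 2 and 0 in each of the other 3 libraries. A count taken after this was seen found 14 genes with at least 20 counts in control 2 and 0 elsewhere. Among them were STAR, which encodes the protein that moves cholesterol into mitochondria for steroid synthesis, with 145 counts, and HBB, the beta chain of haemoglobin, with 79. HSD11B1, a steroid dehydrogenase gene, had 44 and COL6A3, a collagen gene, had 40. GSTP1, also among them, had 27. DCN, a fibroblast marker, also had its highest count in control 2, with 20 against 9 in control 1 and 5 and 2 with Rg3. In Rg3 replicate 1 there were 2 genes of this kind, VAMP7 with 320 counts and the pseudogene CICP7 with 81, and in control 1 and Rg3 replicate 2 there were 0. No explanation was tested.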
